A study of Homo sapiens with 6 samples.

Results

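Transcripts of 47 splicing regulators were measured by RNA sequencing in KYSE-150, an established cell line from a human squamous carcinoma of the oesophagus. The genes were chosen by name as SR proteins, heterogeneous nuclear ribonucleoproteins (hnRNPs) and the kinases and cofactors that work with them, and all 47 were found once each among the 50868 genes of the deposited table. Total RNA came from 3 libraries titled nc and 3 titled si, here named siZNF514. The nc libraries carry no genotype label, and the series design names wild-type cells as the other arm. The siZNF514 libraries are labelled as a ZNF514 knockout with siZNF514 in brackets, and the labels do not say more about the agent. Both groups were grown alike in RPMI 1640 with fetal bovine serum. The sources used here do not give the treatment of nc cells, the sequences used or the time of harvest. Nothing in the labels ties the libraries to separate cultures, and every p-value below then measures only the spread between these libraries, which may be technical.

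The targeted transcript ZNF514 had 239, 273 and 261 counts in nc and 64, 82 and 63 in siZNF514, a fall to 27.3% of the nc level. Library totals ran from 12175259 to 14318909 counts. Of 13 epithelial and squamous markers, 12 could be tested, and the squamous factor SOX2 had 0 to 3 counts in any library. In the test described below, 5 of the 12 were higher in siZNF514, up to 1.12 on the log2 scale for KRT15, and 4 were lower, down to -2.16 for KRT6A. Their part in the results was not tested. Of the 6 fibroblast markers, only LUM had enough counts to test. The summed level of these 6 genes was 0.284 to 0.543 FPKM (fragments per kilobase of transcript, scaled to library size) in nc and 0.0834 to 1.73 in siZNF514, and the top of that range was siZNF514 replicate 3. That library held 112 counts of COL3A1, 49 of COL1A2 and 33 of DCN, against 0 to 5 of each in the others, and 49 of the leukocyte marker LYZ, against 0 to 7. Of the 6 leukocyte markers only CD68, which other cells also express, could be tested. The part of this material in the results was not tested. Without that library 45 of the 47 genes kept their call in the test described below, while U2AF2 lost its call and CLK4 gained one.

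Pre-mRNA splicing removes introns in the spliceosome, and regulators bound to the transcript decide which splice sites it uses. SR proteins carry domains rich in arginine and serine, mostly bind exons and promote their inclusion, and are switched between compartments and activities by phosphorylation by the SRPK and CLK kinases. Many hnRNPs act against exon inclusion, and PTB, MBNL, RBM and QKI proteins add control that depends on where they bind. SR protein genes are also known for holding their own levels through ultraconserved exons that send a transcript to nonsense-mediated decay when included. The counts here are per gene, so productive transcripts and those with such exons are summed.

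All 47 genes passed the filter on low counts and were tested among 14250 genes. Between siZNF514 and nc, 14 rose, 15 fell and 18 missed the threshold, which was 0.05 on p-values of edgeR's quasi-likelihood test after Benjamini-Hochberg adjustment. Among all genes tested, 50.6% passed, 25.5% higher and 25.1% lower, so the share of splicing regulators that passed in either direction was near the background. Their median log2 fold change was 0.00, against -0.01 for all genes tested, and fold changes ran from -1.33 for SRSF8 to 0.94 for QKI. With library totals alone as the scaling, 8 rose and 19 fell, beside 2493 higher and 4775 lower of all genes, whose median moved to -0.14. Changes were mostly small: in the test above only SRSF8 changed by at least 2-fold, where 9.28% of all genes did so past the threshold. With total counts alone SRSF6 (-1.02) and MBNL1 (-1.08) also did. MBNL1, PTBP1 and QKI reached -1.06, 1.06 and 1.06 in single fits that left out 1 library. The 3 siZNF514 libraries lay wholly above or below the 3 nc libraries for 29 of the 47, against 60.3% of all genes tested. In bulk RNA, fewer cells of a kind and less RNA per cell cannot be told apart. Reads of these genes made up 1.02% to 1.03% of each nc library and 0.952% to 0.985% of each siZNF514 library. These shares use library totals alone, the scaling under which the median of all genes was -0.14.

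**Figure D1:**
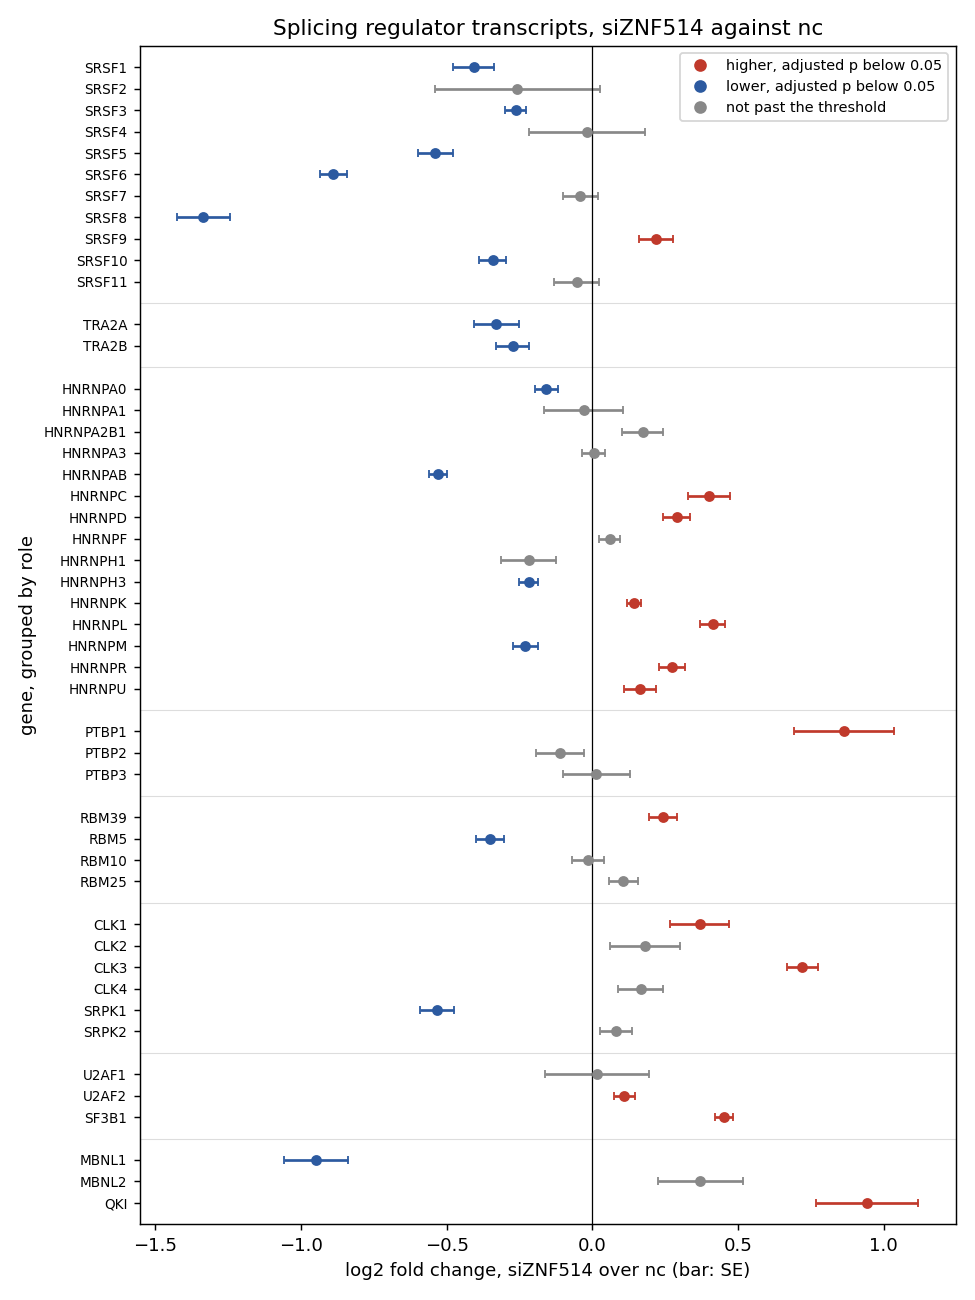
Log2 fold change of siZNF514 over nc (x axis) with its standard error for each of the 47 genes, grouped by role (y axis), coloured by its call at the 0.05 threshold. SR proteins and the Transformer-2 pair lie mostly left of 0, with SRSF8 lowest at -1.33, and hnRNPs lie on both sides of 0.

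The SR protein genes were mostly lower. Among the 11, there were 6 that fell and 1 that rose (7 and 0 with total counts alone), and the median log2 fold change was -0.26. Below 0 were 10 values, beside 7206 of the 14250 genes tested. Those of SRSF2, SRSF4, SRSF7 and SRSF11 turned sign in some fit that left out 1 library. The share that fell was 54.5%, beside 25.1% of all genes tested, and with total counts alone 4775 of 14250 genes fell. Their summed level went from 208 ± 4.49 FPKM in nc to 149 ± 3.40 FPKM in siZNF514 (SD, n = 3). FPKM values here are not scaled for library composition. Summed over the same genes in CPM (counts scaled to a common library size, with TMM factors for composition), the level was 1716 ± 35.2 and 1398 ± 34.8. Within these sums SRSF6 alone went from 57.4 to 28.4 FPKM and from 287 to 155 CPM, a large part of the fall.

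SRSF6 (ENSG00000124193; hg38 chromosome 20, 43457928 to 43464247, plus strand), an SR protein with 2 RNA recognition motifs, was the highest of them by FPKM in nc, at 57.4 ± 1.32. It stood at 279, 294 and 288 CPM in nc and at 148, 161 and 157 CPM in siZNF514. Every siZNF514 library was thus well below every nc library, and the fall was -0.89 on the log2 scale (SE 0.05; edgeR quasi-likelihood, Benjamini-Hochberg adjusted p = 1.8e-05). In siZNF514, at 28.4 ± 1.05 FPKM, it lay below SRSF9 at 37.2 ± 1.14 FPKM. SRSF8 (ENSG00000263465; chromosome 11, 95067197 to 95071224, plus strand), an SR protein gene that arose as a retrocopy of SRSF2, stood at 52.6, 49.3 and 52.2 CPM in nc and at 21.5, 17.9 and 21.7 CPM in siZNF514. It fell by 1.33 on the log2 scale (SE 0.09), and no library of one group came near those of the other. SRSF5 fell from 77.1, 83.5 and 75.9 CPM to 56.7, 52.2 and 53.9 CPM (-0.54, SE 0.06).

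The other decreases were smaller. SRSF1 (chromosome 17, 58003360 to 58007346, minus strand), the founding member known as SF2/ASF and a proto-oncogene in several cancers, fell from 267 ± 4.57 to 201 ± 19.9 CPM (-0.41, SE 0.07). Of the 50-base words of its transcripts, 57.5% also occur in other genes, mostly in AC015813.2 (54.5%). SRSF10, which represses splicing when dephosphorylated, fell by 0.34 (SE 0.05), and SRSF3, the smallest SR protein and one that also exports mRNA, by 0.26 (SE 0.04), on the log2 scale. SRSF9 was the only SR protein gene past the threshold in the other direction, with 207, 229 and 199 CPM in nc and 253, 241 and 246 CPM in siZNF514 (0.22, SE 0.06). That call was lost without nc replicate 1 (0.20), without nc replicate 3 (0.18) and with total counts alone as the scaling (0.09). Of the SRSF9 transcripts' 50-base words, 37.4% also occur in transcripts of GATC, which overlaps it on the other strand and itself did not pass (-0.18, SE 0.08).

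SRSF7 (-0.04, SE 0.06) and SRSF11 (-0.05, SE 0.08) did not pass, though SRSF7 did with total counts alone (-0.17). Neither did SRSF4 and SRSF2, whose libraries were uneven. SRSF4 had 65.8, 67.6 and 90.9 CPM in nc and 53.4, 85.1 and 82.8 in siZNF514. SRSF2, which binds exons and also acts in transcription elongation, had 100.4, 150.0 and 81.7 CPM in nc and 98.1, 61.7 and 118 CPM in siZNF514. Its groups overlapped, with the highest library in nc and the lowest in siZNF514, and its log2 fold change of -0.26 (SE 0.28) went to 0.03 without nc replicate 2. MFSD11, which lies across SRSF2 on the other strand and shares 28.8% of its 50-base words, fell (-0.37, SE 0.09) at 151 to 233 counts a library.

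TRA2A and TRA2B, the human Transformer-2 proteins, are SR-like activators that bind purine-rich exonic enhancers. Both fell, TRA2A from 53.2, 62.0 and 53.7 CPM to 46.6, 43.0 and 44.8 CPM (-0.33, SE 0.08) and TRA2B from 152, 153 and 167 CPM to 124, 136 and 130.4 CPM (-0.27, SE 0.06). In nc, TRA2B had 157 ± 8.42 CPM against 56.3 ± 4.96 CPM for TRA2A. By FPKM the gap was within the spread of TRA2A, at 8.26 ± 0.428 against 7.75 ± 0.670.

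Since SRSF6 and SRSF8 had the largest decreases of the SR genes, the 250 bases before their annotated starts are shown, from RefSeq (GRCh38.p14, plus strand, 5′ to 3′). Where RefSeq has more than 1 start, as for SRSF8, the first was used. The motifs searched on both strands were the CCAAT box, the E-box CACGTG, the GC box GGGCGG, the CRE motif TGACGTCA and the TATA box TATAAA. Capitals mark any match, and none of these motifs contains another.
SRSF6 chr20:43457646-43457895: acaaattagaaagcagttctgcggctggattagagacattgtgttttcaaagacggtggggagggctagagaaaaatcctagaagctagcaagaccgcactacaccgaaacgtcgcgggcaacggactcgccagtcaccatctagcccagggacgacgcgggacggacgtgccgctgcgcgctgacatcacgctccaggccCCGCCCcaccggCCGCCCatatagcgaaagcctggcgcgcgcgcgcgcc
SRSF8 chr11:95066627-95066876: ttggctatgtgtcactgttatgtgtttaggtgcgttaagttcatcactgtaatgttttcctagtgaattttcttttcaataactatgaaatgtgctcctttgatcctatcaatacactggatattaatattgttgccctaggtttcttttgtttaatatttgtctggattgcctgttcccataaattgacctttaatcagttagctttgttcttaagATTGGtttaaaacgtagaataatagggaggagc
The stretches differ in composition, with a GC content of 61.6% before SRSF6 and 33.6% before SRSF8. The SRSF8 stretch ends at 95066876, short of the start of the counted gene at 95067197. The other RefSeq start of SRSF8 was not examined. SRSF6 has 2 matches to the GC box and SRSF8 has 1 to the CCAAT box. Promoters were found for 42 of the 47 genes, 7 of them among the 8 SR and Transformer-2 genes that fell. Of these 7, the CCAAT box was in 2 and the GC box in 2. Over 35116 RefSeq promoters of the same length, 32% hold the CCAAT box and 42.6% the GC box. Among the 42, the CCAAT box was in 17 and the GC box in 26. The E-box was in 7 (6.34% of all promoters hold it), the TATA box in 5 (10.7%) and the CRE motif in 0 (1.65%). These matches describe letters only.

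The hnRNP genes moved both ways. Among the 15, there were 6 that rose and 4 that fell, and the median was 0.06 (with total counts alone 4, 6 and -0.07). These are 40% and 26.7% of the class, beside 25.5% and 25.1% of all genes tested. As a class they were the most abundant, with a summed level of 5889 ± 46.9 CPM in nc and 6198 ± 138 CPM in siZNF514. In FPKM, which lacks the composition scaling, the same sums were 555 ± 3.01 and 521 ± 9.54, so the direction of the sum depended on the scaling.

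HNRNPAB, a protein of the A/B type that binds AU-rich sequences, had the largest decrease of the hnRNPs. It stood at 517, 529 and 503 CPM in nc and at 355, 361 and 357 CPM in siZNF514 (-0.53, SE 0.03; edgeR quasi-likelihood, Benjamini-Hochberg adjusted p = 3.1e-05). In nc it ranked second of the 47 by FPKM, at 71.1 ± 1.80, and in siZNF514 it was at 45.1 ± 0.257 FPKM. PHYKPL, which overlaps its end on the other strand and shares 7.21% of its 50-base words, had 347 to 430 counts in nc and 136 to 213 in siZNF514. HNRNPM, HNRNPH3 and HNRNPA0 fell by 0.23, 0.22 and 0.16 on the log2 scale. HNRNPA0 went from 228, 234 and 231 CPM to 199.5, 213 and 208 CPM, and did not pass without nc replicate 2 (-0.15) or siZNF514 replicate 1 (-0.12).

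HNRNPL, which binds CA repeats, and HNRNPC, which binds uridine tracts and keeps Alu elements from being spliced in, had the largest increases. HNRNPL rose from 345 ± 10.1 to 459 ± 18.2 CPM (0.41, SE 0.04) and HNRNPC from 306 ± 19.9 to 404.5 ± 33.1 CPM (0.40, SE 0.07). HNRNPD, also called AUF1, rose by 0.29 (SE 0.05), and HNRNPR by 0.27 (SE 0.04). HNRNPR was at 0.15 with total counts alone and did not pass in any limma-trend fit on FPKM (0.14 to 0.15). HNRNPK, a poly(C)-binding protein, was the highest of the 47 genes by FPKM in nc. It had 705, 704 and 706 CPM in nc and 779, 788 and 769 CPM in siZNF514. Its rise of 0.14 (SE 0.02) was small beside the scaling: in FPKM it was 78.3 ± 0.250 and 79.3 ± 1.038, and with total counts alone it was 0.02 and did not pass. HNRNPU, which also organises chromatin, rose by 0.16 (SE 0.05) from 603, 581 and 642 CPM to 705, 703 and 634 CPM. The lowest siZNF514 library lay inside the nc range, and the call was lost with total counts alone (0.04) and without nc replicate 1 (0.16), nc replicate 2 (0.13), siZNF514 replicate 1 (0.15) or siZNF514 replicate 2 (0.15).

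HNRNPF did not pass (0.06, SE 0.04). HNRNPA2B1 had 1063, 891 and 882 CPM in nc and 1050.1, 1091 and 1058 CPM in siZNF514 (0.17, SE 0.07). Only nc replicate 1 stood at the siZNF514 level, and without it HNRNPA2B1 passed at 0.27. HNRNPH1, which binds runs of G, had 155, 161 and 182 CPM in nc and 161, 133 and 134 CPM in siZNF514 (-0.22, SE 0.09) and passed at -0.31 without siZNF514 replicate 1 and at -0.34 with total counts alone.

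HNRNPA1 and HNRNPA3 need a reading of their own, because many counts stand on rows of their processed copies. HNRNPA1, the best known exonic silencer-binding protein, competes with SRSF1 for splice site choice. It had 3962, 5651 and 4907 counts in nc and 3960, 5518 and 4568 in siZNF514, and its log2 fold change was -0.03 (SE 0.14). The table has 75 rows named as HNRNPA1 pseudogenes, which are intron-less copies of its mRNA elsewhere in the genome. Together those rows held 70.5% to 77.7% of all counts on HNRNPA1 and its copies. HNRNPA1P48 alone had 5561 to 6288 counts in nc and 6517 to 7082 in siZNF514, and HNRNPA1P7 had 4852 to 5597 and 5468 to 6109. With the counts of pseudogene rows added to their gene, HNRNPA1 had a log2 fold change of 0.13 and passed (edgeR quasi-likelihood, Benjamini-Hochberg adjusted p = 0.0171). Its direction and its call therefore depended on whether the counts of the pseudogene rows were added, and the origin of those reads was not tested.

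For HNRNPA3, the pseudogene rows held 43.9% to 45.9% of the counts, mostly on HNRNPA3P6, and neither the gene (0.00, SE 0.04) nor that row (0.06, SE 0.04) passed. With total counts alone HNRNPA3 passed as lower (-0.12). For HNRNPC the rows held 14.3% to 17.8%, for HNRNPK 6.52% to 7.53%, and for HNRNPL 3.40% to 4.08%. HNRNPL shares 27.8% of its 50-base words with other genes, led by AC008982.1 (18.2%) and HNRNPLP2 (13.4%). Their leading pseudogene rows rose as the genes did: HNRNPCP2 by 0.53 (SE 0.05), HNRNPKP4 by 0.28 (SE 0.06) and HNRNPLP2 by 0.49 (SE 0.09) on the log2 scale. In all, 19 of the 47 genes had 130 such rows.

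**Figure D2:**
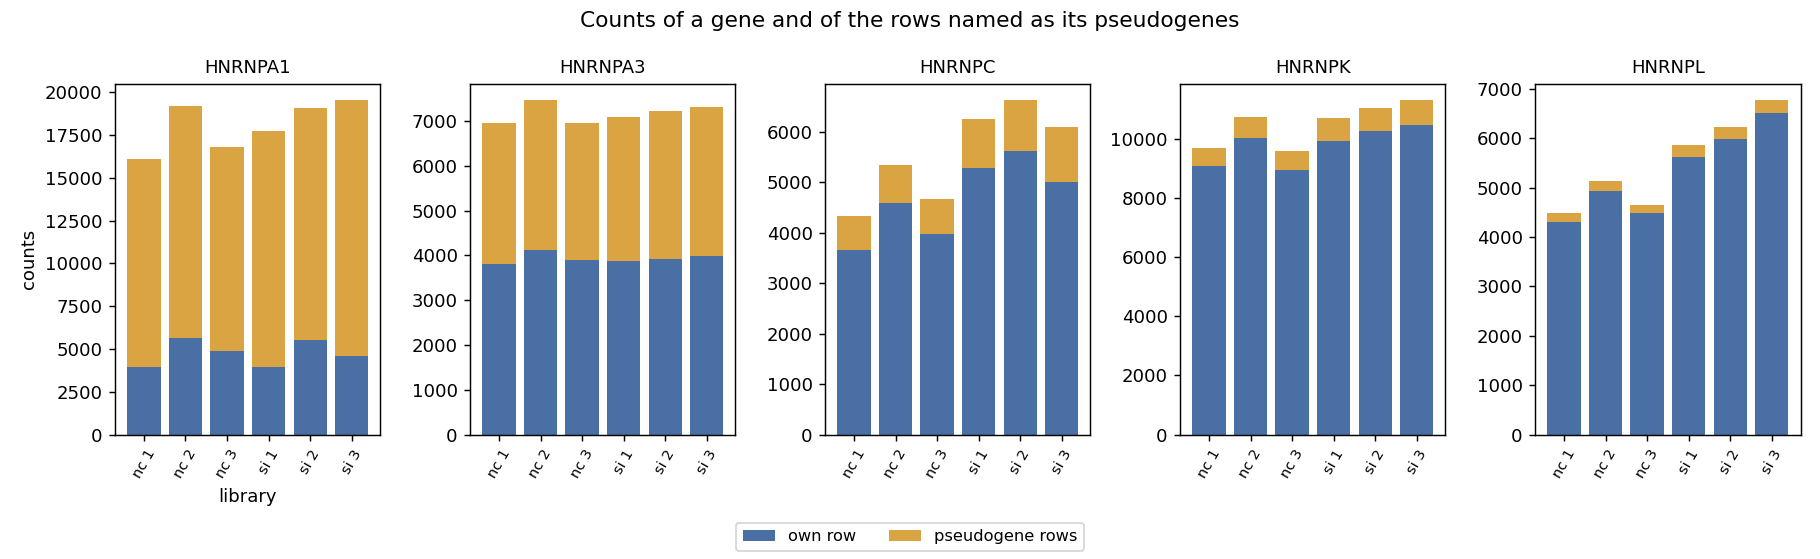
Counts (y axis) on the row of each hnRNP gene and on all rows named as its pseudogenes, stacked, in the 3 nc and 3 siZNF514 libraries (x axis). The pseudogene rows hold 70.5% to 77.7% of the HNRNPA1 total and 3.40% to 4.08% of the HNRNPL total.

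Among the polypyrimidine tract-binding proteins, which silence exons next to pyrimidine-rich tracts, PTBP1 rose and its paralogs did not pass. PTBP1 (ENSG00000011304; chromosome 19, 797075 to 812327, plus strand) stood at 164, 161 and 182 CPM in nc and at 372, 224 and 327 CPM in siZNF514. The siZNF514 libraries were all above nc but far apart, and the log2 fold change was 0.86 (SE 0.17), between 0.71 and 1.06 when any 1 library was left out. PTBP2, the form that takes over in neurons, had 20.3 ± 0.381 and 18.8 ± 1.16 CPM (-0.11, SE 0.08) and passed as lower with total counts alone (-0.24). PTBP3 was the highest of these genes by FPKM in nc, at 15.9 ± 0.549. It had 284, 277 and 266.5 CPM in nc and 334, 240 and 262 CPM in siZNF514. Its value of 0.01 (SE 0.11) had no stable sign. In both PTBP1 and PTBP3, siZNF514 replicate 1 was the highest library.

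RNA-binding motif proteins split as well. RBM39, a U2AF-related cofactor that sulfonamide drugs degrade, rose from 184 ± 7.83 to 218 ± 6.51 CPM (0.24, SE 0.05), a call lost with total counts alone (0.12). RBM5, which has been described as a tumour suppressor that alters splicing of apoptosis genes, fell from 71.2 ± 1.08 to 55.8 ± 1.46 CPM (-0.35, SE 0.05). Its transcripts share 17.1% of their 50-base words with RBM5-AS1, which had no count, and 7.30% with the neighbour RBM6, which did not pass. RBM10, the closest relative of RBM5, had 93.7, 101 and 99.9 CPM in nc and 101, 96.9 and 93.0 CPM in siZNF514 (-0.02, SE 0.05). By FPKM it was the highest of the 4 in nc (19.4 ± 0.693), while in CPM RBM39 was higher (184 ± 7.83). RBM25, a partner of the U1 particle, was at 0.11 (SE 0.05).

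The kinases that phosphorylate SR proteins moved apart. SRPK1 (ENSG00000096063; chromosome 6, 35832966 to 35921342, minus strand), the cytoplasmic kinase that primes SR proteins for nuclear import, fell from 124, 129 and 121 CPM to 92.4, 82.6 and 83.6 CPM (-0.53, SE 0.06). Its paralog SRPK2 did not pass (0.08, SE 0.06). CLK3 (ENSG00000179335; chromosome 15, 74598500 to 74645414, plus strand), a nuclear kinase that releases SR proteins from speckles, rose from 48.6, 47.8 and 49.8 CPM to 81.9, 81.9 and 77.2 CPM (0.72, SE 0.05). Libraries within a group differed little for CLK3, whose SE was the smallest of the 3 increases above 0.5. CLK1 rose from 30.4, 32.6 and 26.7 CPM to 42.4, 37.9 and 35.6 CPM (0.37, SE 0.10), which did not pass without nc replicate 3 (0.30), without siZNF514 replicate 1 (0.31) or with total counts alone (0.24). CLK4 had 33.3, 32.2 and 34.0 CPM in nc and 39.8, 37.6 and 34.2 CPM in siZNF514 (0.17, SE 0.08) and passed without siZNF514 replicate 3 (0.23). CLK2 was at 0.18 (SE 0.12).

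Of the proteins that recognise the end of the intron, SF3B1 (ENSG00000115524; chromosome 2, 197389784 to 197435091, minus strand) changed most. It is the U2 particle subunit that grips the branch point and is often mutated in leukaemias. It rose from 342, 337 and 340 CPM to 472, 466 and 455 CPM (0.45, SE 0.03; edgeR quasi-likelihood, Benjamini-Hochberg adjusted p = 4.8e-05). U2AF2, which binds the pyrimidine tract, had 243, 253 and 246 CPM in nc and 265.9, 265.8 and 268 CPM in siZNF514 (0.11, SE 0.03). It was close to the threshold and did not pass in 4 of the 6 fits that left out 1 library, those without nc replicate 1 (0.10), nc replicate 3 (0.11), siZNF514 replicate 2 (0.12) or siZNF514 replicate 3 (0.11). With total counts alone it was -0.02, and it did not pass in the DESeq2 Wald test (0.12).

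U2AF1, the partner that reads the AG at the intron end, had only 75, 110 and 104 counts in nc and 106, 81 and 102 in siZNF514, or 0.474 ± 0.0810 and 0.440 ± 0.0654 FPKM, beside 42.5 ± 0.741 and 42.0 ± 0.225 FPKM for U2AF2. The GRCh38 assembly holds a second copy of the gene on chromosome 21, annotated U2AF1L5, and 93.3% of the 50-base words of U2AF1 transcripts also occur in U2AF1L5 transcripts. The first 80 bases of its first coding exon of at least that length, from GENCODE 29 on GRCh38, minus strand, 5′ to 3′, are printed to show how close the copies are.
U2AF1 chr21:43104323-43104402: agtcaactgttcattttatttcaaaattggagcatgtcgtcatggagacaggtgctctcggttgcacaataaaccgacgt
It is found with 0 mismatches at 6496001 to 6496080 of the same chromosome in U2AF1L5, a row with no count in any library. The sources used here do not say how reads matching both copies were treated, so the level of U2AF1, and its log2 fold change of 0.02 (SE 0.18), describe only the reads assigned to that row.

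MBNL1 and MBNL2 are muscleblind proteins that promote adult splicing patterns, and QKI favours circular RNAs and mesenchymal splicing. MBNL1 and QKI had the largest changes outside the SR genes. MBNL1 (ENSG00000152601; chromosome 3, 152243828 to 152465780, plus strand) fell from 146, 110.0 and 140.0 CPM to 72.1, 69.1 and 63.8 CPM (-0.95, SE 0.11), the second largest decrease of the 47. An antisense gene, MBNL1-AS1, shares 13.4% of its 50-base words. MBNL2 had 50.2, 71.4 and 50.8 CPM in nc and 80.8, 75.2 and 67.1 CPM in siZNF514 (0.37, SE 0.15). Its groups overlapped through nc replicate 2, and without that library it passed at 0.56, as it did in the DESeq2 Wald test (0.38). QKI (ENSG00000112531; chromosome 6, 163414000 to 163578596, plus strand) rose from 24.3, 22.6 and 23.1 CPM to 58.7, 37.7 and 38.2 CPM (0.94, SE 0.18), the largest increase of the 47. Here too siZNF514 replicate 1 was the highest, and without it the log2 fold change was 0.71. In limma-trend it was 0.38 on log2(FPKM + 1), and on log2(FPKM + 0.1) it was 0.71 and did not pass without the filter on low FPKM.

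**Figure D3:**
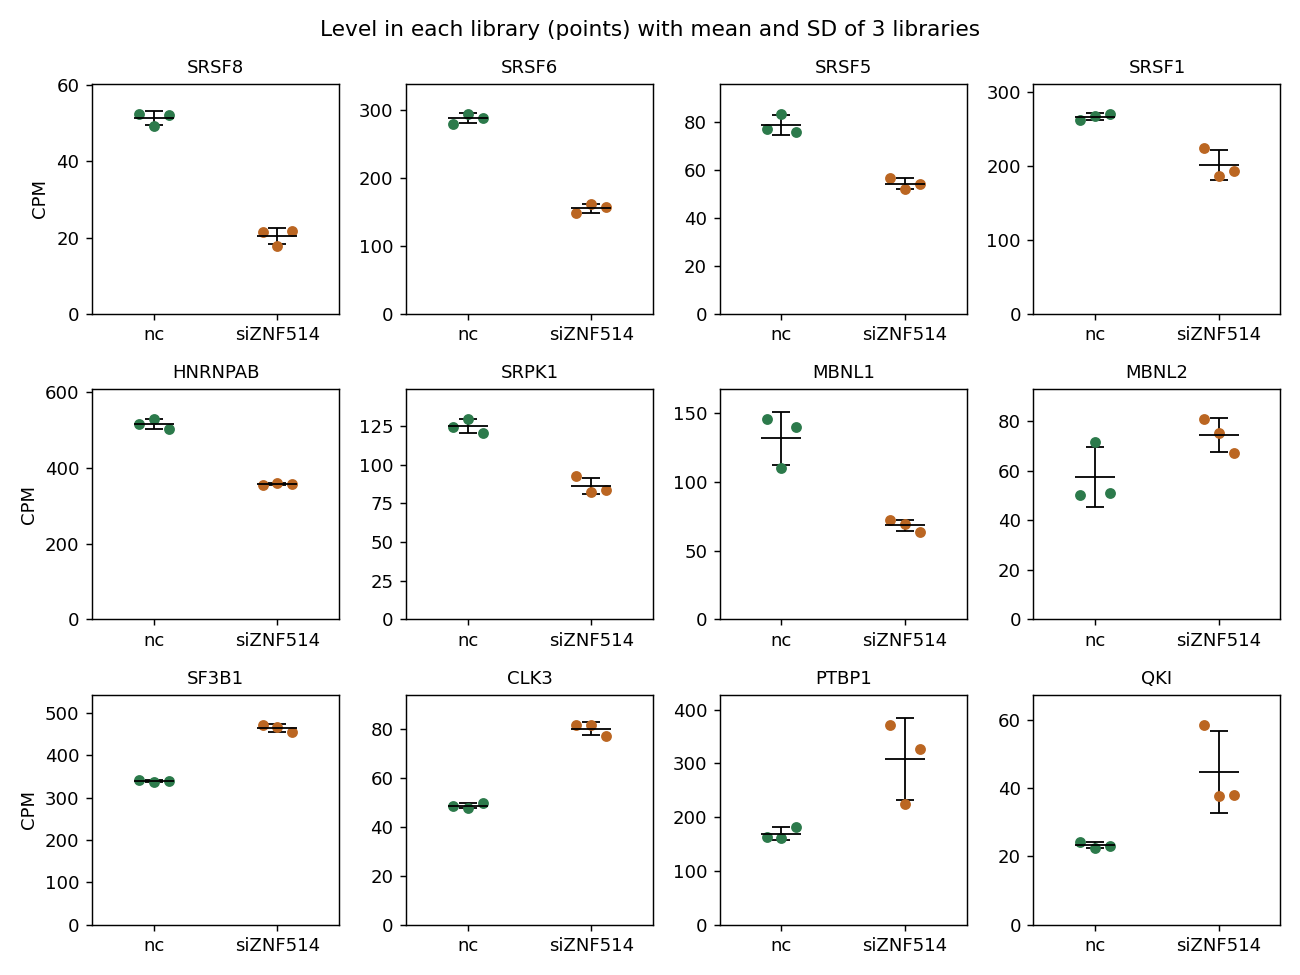
Level in CPM (y axis, from 0) of 12 genes in the 3 nc and 3 siZNF514 libraries (x axis), with points for libraries and bars for the mean and SD. Every siZNF514 point is below every nc point for SRSF8, SRSF6, SRSF5, SRSF1, HNRNPAB, SRPK1 and MBNL1, and above for SF3B1, CLK3, PTBP1 and QKI, while MBNL2 overlaps.

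Ratios of 2 related genes within a library do not depend on how libraries are scaled, and 14 pairs were compared. The groups did not overlap for 9 of them (64.3% of the pairs). Among single genes 60.3% did not overlap, and the share over other pairs of genes was not computed, so nothing particular to these pairs can be read from the count. Each of the 9 had p = 0.1 in an exact two-sided permutation test, the smallest that 3 against 3 libraries allow, or p = 0.156 after Benjamini-Hochberg adjustment over the 14, so none could pass. The largest shift was in MBNL2 to MBNL1, from 0.345, 0.649 and 0.363 in nc to 1.12, 1.09 and 1.05 in siZNF514, a log2 difference of 1.33. MBNL2 counts were thus below MBNL1 counts in every nc library and above them in every siZNF514 library. PTBP3 counts exceeded PTBP1 counts in nc, at ratios of 1.73, 1.72 and 1.46, and were 0.898, 1.07 and 0.799 in siZNF514. SRSF9 to SRSF1 went from 0.790, 0.857 and 0.735 to 1.13, 1.29 and 1.27. SRPK2 to SRPK1 went from 0.393, 0.373 and 0.409 to 0.566, 0.646 and 0.589.

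The pair SRSF6 to SRSF4 fell in log2 ratio by 0.85, PTBP2 to PTBP1 by 0.95 and RBM5 to RBM10 by 0.34, while CLK3 to CLK2 was higher by 0.54 and SRSF7 to SRSF3 by 0.22, all without overlap. The groups overlapped for TRA2A to TRA2B, CLK1 to CLK2, CLK4 to CLK1, U2AF1 to U2AF2 and HNRNPH3 to HNRNPH1, with log2 differences of -0.05, 0.19, -0.21, -0.09 and 0.00. These ratios are of counts, not of levels per length, and only their change between groups is comparable between pairs.

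**Figure D4:**
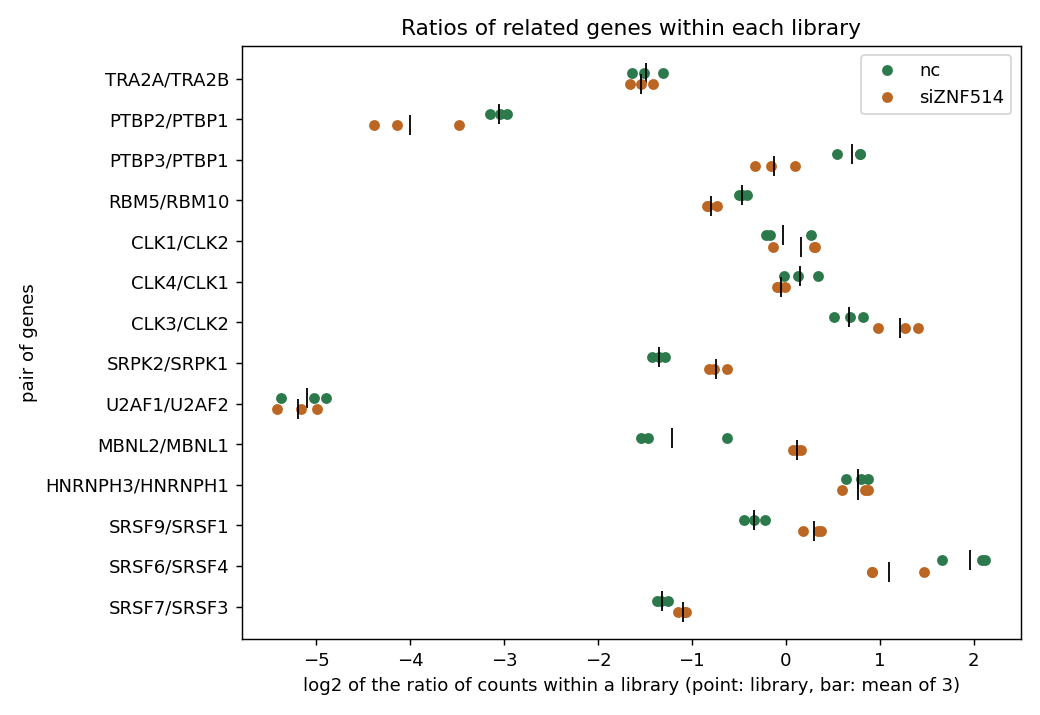
Log2 ratio of the counts of 2 related genes within each library (x axis) for 14 pairs (y axis), with 3 nc and 3 siZNF514 points a pair and a bar at each mean. The groups are apart for 9 pairs, furthest for MBNL2/MBNL1, where the means differ by 1.33.

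The other genes of the splicing machinery were taken from lists. Of 15 Sm and LSm proteins, which form the rings around the small nuclear RNAs, 13 rose, 0 fell and 2 did not pass, where 25.5% of all genes tested were higher. Their median was 0.42, and with total counts alone 9 rose and 0 fell (median 0.29). The number that rose was 9 without nc replicate 1, 8 without nc replicate 2, 9 without siZNF514 replicate 2 and 10 to 11 without any other single library, with 0 lower in each. The core gene SNRPB rose by 0.42 (SE 0.03), LSM4 by 0.44 (SE 0.05) and SNRPD3 by 0.39 (SE 0.05). Of 8 U1 particle genes, 4 rose and 0 fell, among them SNRNP70 (0.57, SE 0.09) and SNRPC (0.37, SE 0.05). With total counts alone 3 of these rose and 1 fell. Of 16 other U2 particle and branch point genes, 7 rose and 2 fell (5 and 2 with total counts alone). SF3B6, SF3B2 and PUF60 rose by 0.47, 0.30 and 0.41. The branch point-binding protein gene SF1 and the SF3B4 subunit gene both fell by 0.36.

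Genes of later steps passed at shares below or near those of all genes. Of 16 tri-snRNP genes, 3 rose and 3 fell (2 and 4 with total counts alone), with the catalytic core gene PRPF8 at 0.40 (SE 0.04) and the helicase gene SNRNP200 at 0.23 (SE 0.03) among those that rose, and PRPF4 (-0.23) and SNRNP40 (-0.28) among those that fell. Of 19 genes of the complex around PRPF19 and of the catalytic steps, 5 rose and 5 fell, and with total counts alone 1 rose and 9 fell. The 26.3% in each direction is near the 25.5% and 25.1% of all genes. Without nc replicate 3, 3 rose. XAB2 rose by 0.48 (SE 0.04), while SLU7 and PRPF18, second-step factors that help choose the intron's end, fell by 0.73 (SE 0.05) and 0.60 (SE 0.09), and PRPF19 by 0.26.

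Of 18 SR-related proteins, 5 rose and 4 fell, also near the background (4 and 8 with total counts alone, and 5 and 2 without nc replicate 2). RSRC2 rose by 1.10 (SE 0.17), CLASRP by 0.55 (SE 0.07) and ARGLU1 by 0.37 (SE 0.05), while SREK1 fell by 0.63 (SE 0.07) and SCAF1 by 0.36 (SE 0.04). Of 45 tested genes among 48 other splicing regulators, 17 rose (37.8%) and 8 fell (17.8%), a balance that was 10 and 12 with total counts alone and 14 and 5 without nc replicate 1. RBFOX2, a factor of muscle, nerve and mesenchymal splicing, rose by 0.64 (SE 0.04), CELF1 by 0.62 (SE 0.04) and HNRNPUL1 by 0.29 (SE 0.04). The paraspeckle protein gene SFPQ fell by 0.91 (SE 0.03), and the RNA helicase genes DDX5 and DDX17 by 0.69 (SE 0.05) and 0.22 (SE 0.04). These genes are named by p-value, and log2 fold changes in this list ran from -1.63 to 0.72. Of 15 genes of nonsense-mediated decay and the exon junction complex, 1 rose, 2 fell and 12 did not pass, shares below those of all genes. EIF4A3, the anchor of that complex, rose by 0.47 (SE 0.04), and UPF2 and UPF3B fell by 0.31 (SE 0.06) and 0.57 (SE 0.14).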

How the data were processed

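One deposited table held, per the file headers, a raw count and an FPKM value per gene for 3 nc and 3 siZNF514 libraries. Columns were matched by library title, and 0 sample columns were left over. Per the submitters' processing notes, HISAT2 2.0.4, StringTie 1.3.3b, edgeR and hg38 were used, with no roles; no source used here gives the annotation release, the strand setting or the handling of multiply mapped reads. The authors' deposited counts were not normalized, and deposited FPKM values are scaled to gene length and library total. Ranks of genes by FPKM depend on the lengths used, which were not checked.

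Genes were filtered with filterByExpr (minimum count 10, total 15) and scaled by TMM. They were tested in edgeR 4.0.16 (R 4.3.3) by the quasi-likelihood F test, without covariates. Benjamini-Hochberg adjustment ran over 14250 genes, with a threshold of 0.05. The fit was also run on simulated data with a common spread and equal numbers of raised and lowered genes, which does not check the scaling. The SE is the log2 fold change over the square root of F. Libraries of a group differed by more than sampling noise (chi-square 5.54 to 7.18 per degree of freedom). Ratios of 2 genes used counts plus 0.5. Alternatives used DESeq2 1.42.0 and limma 3.58.1. The share of 50-base words was taken over coding transcripts of GENCODE 29 against all other genes on both strands, and 12 of the 47 genes shared over 10%. The reference does not have to be the annotation that the authors counted on.

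The genes, their roles, the lists and the tests were chosen with earlier results of these data known. Values in every library are given for genes past the threshold with an absolute log2 fold change of at least 0.5. The same holds for the highest gene of each role by FPKM. Genes whose call changed when 1 library was left out were treated alike. From each list, up to 3 genes with the smallest p-values in each direction are named. SRSF1, SRSF2, SRSF4, SF3B1, TRA2A and U2AF1 were given in more detail after their values were seen. A marker gene and a stretch of sequence are not reported here.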

Additional observations from a re-analysis of the deposited data

How the results depend on the processing

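The numbers of splicing regulators past the threshold depended on the scaling and little on the rest. Against 14 higher and 15 lower, total counts alone gave 8 and 19, limma-trend on log2(FPKM + 0.1), log2(FPKM + 1) and log2(FPKM + 0.01) each gave 7 and 17, and without a filter on FPKM 6 and 15. These settings lack the composition scaling, which moves the median of all genes to -0.14 with total counts alone. DESeq2 size factors gave 14 and 15 with all 47 calls kept, the DESeq2 Wald test 14 and 15 with 45 kept, and leaving out each library gave 11 to 14 higher and 14 to 15 lower. ZNF514 was lower in each fit. Same-numbered libraries did not deviate together (r of 0.0075, 0.041 and -0.036). These values show no strong shared deviation and cannot tell whether the libraries were prepared in pairs. With the replicate number as a block, 12 rose and 15 fell; U2AF2 and HNRNPU no longer passed, and 10 of the 14 ratios moved one way in all same-numbered pairs. Leaving out each library gave 9 to 11 ratios without overlap. Neither this number nor the 10 of 14 could fall below 9, because ratios already apart in all libraries stay apart. They are therefore no check of those 9 ratios.

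Of the genes whose sign turned, only U2AF2 had passed. With total counts alone and then limma-trend at pseudocounts of 0.1, 1 and 0.01, HNRNPA3 was -0.12 in each, HNRNPF was -0.068, -0.067, -0.066 and -0.067, PTBP3 was -0.11, -0.13, -0.12 and -0.13, RBM25 was -0.020, -0.019, -0.017 and -0.020, SRPK2 was -0.047, -0.045, -0.037 and -0.046, U2AF1 was -0.11, -0.086, -0.033 and -0.10, and U2AF2 was -0.017, -0.016, -0.016 and -0.016. Without the FPKM filter the log2 fold changes were those at a pseudocount of 0.1. At a mean count of at least 50, HNRNPA3 was -0.031, PTBP3 -0.021 and U2AF1 -0.019. With no filter on counts, SRSF4 was 0.0019 and RBM10 0.0046. With pseudogene rows added, HNRNPA1 was 0.13. Leaving out each library gave -0.17 to 0.069 for HNRNPA1, -0.015 to 0.032 for HNRNPA3, -0.13 to 0.12 for PTBP3, -0.045 to 0.023 for RBM10, -0.13 to 0.023 for SRSF11, -0.46 to 0.026 for SRSF2, -0.13 to 0.18 for SRSF4, -0.076 to 0.011 for SRSF7 and -0.12 to 0.13 for U2AF1. The cause of these turns was not tested. Counts of 75 to 110 a library limit U2AF1, and the other genes had at least 227.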
